A study of Mus musculus with 8 samples.

Results

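Early neutrophil progenitors were the bone marrow cells that held Cebpe RNA and ample Elane RNA but little or no Fcnb RNA, and they were chosen on these measured values. Among cells with at least 1000 UMIs (unique RNA molecules counted) and under 10% mitochondrial UMIs, a member had at least 1 Cebpe UMI, at least 5 Elane UMIs, fewer than 2 Fcnb UMIs, and 0 UMIs of Ly86 and of Ms4a2. The rule found 4506 members among 46159 filtered cells. The cells came from single-cell RNA sequencing of lineage-negative, c-Kit-positive bone marrow, a gate that keeps stem cells and progenitors and removes cells already carrying surface markers of mature lineages. There were 8 wild-type mice, all untreated as far as the labels say, each captured and sequenced as a library of its own. A male and a female were taken at each age: both at 14 weeks (young), both at 50 weeks (middle-aged), a male at 78 and a female at 79 weeks (old), and both at 95 weeks (very old). The 4 mice of 78 to 95 weeks are called older where they are joined. Each age therefore rests on 2 mice that also differ in sex. The tests of genes between ages carried a term for sex, while the tests of shares did not. All tests took the mouse, not the cell, as the replicate.

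Neutrophils are made in steps that can be read from granule genes. The enzymes of the primary granule, such as neutrophil elastase (Elane), proteinase 3 (Prtn3) and myeloperoxidase (Mpo), come first, and proteins of the secondary granule follow. The transcription factor C/EBP-epsilon (Cebpe) is needed for the passage to the secondary granule stage, and the repressor Gfi1 turns progenitors away from the monocyte fate. Fcnb encodes ficolin B, a lectin that comes on as the cells mature, while Ly86 and Ms4a2 mark monocyte and basophil or mast cell relatives. In the mm10 genome with the GENCODE vM21 annotation, the protein-coding genes lie on chromosome 14 from 54710360 to 54712174 (Cebpe), chromosome 10 from 79886247 to 79888215 (Elane) and chromosome 5 from 107716657 to 107726036 (Gfi1).

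Whole libraries held 6459 to 8866 barcodes and 83062003 to 150135029 UMIs, and 4912 to 7265 cells per mouse passed the filters. Of the filtered barcodes, 271 occurred in 2 or more libraries. Among members, 57 had a barcode that another library shared, and in 4 such barcodes both cells were members. The summed member counts used in the tests came to 9365311 to 14151874 UMIs per mouse.

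The members carried the label's markers. The rule fixed Cebpe and Elane, whose median was 3 to 6 and 101 to 210.5 UMIs per member across the mice, and these are given as a description only. Gfi1 was not used by the rule, and at least 1 Gfi1 UMI was found in 52.3% to 69.1% of the members of a mouse. In erythroid cells (Gata1 and Klf1 detected, under 5 Elane UMIs), which should lack Gfi1, the share was 1.19% to 3.46%, with median depths of 17124.5 to 36633 UMIs against 14772 to 25517.5 in members. After every cell was thinned to 10400 UMIs, the shares were 37.5% to 49.5% in members and 0.412% to 1.46% in erythroid cells, so that the 2 ranges stayed apart. Thinning left out 72 young, 44 middle-aged, 114 old and 130 very old members for being shallower, and 1374 of 10925 erythroid cells. Many members sat near the edges of the rule. Exactly 1 Cebpe UMI was held by 9.85% to 20.2% of a mouse's members, 5 to 9 Elane UMIs by 1.99% to 5.46% and 1 Fcnb UMI by 4.10% to 11.3%. Just outside, 5 to 31 cells per mouse missed the rule with exactly 2 Fcnb UMIs, and 29 to 95 with 1 to 4 Elane UMIs. Of the 579 to 1202 cells per mouse with enough Elane and Cebpe UMIs, 114 to 324 were left out for a Ly86 UMI. A further 23 to 81 were left out for an Ms4a2 UMI.

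Early neutrophil progenitors made up between 7.45% and 12.5% of the filtered cells, with no order by age. Their share was 8.945% in the young male and 10.1% in the young female, and 8.26% and 7.45% in the middle-aged male and female. It was 12.5% in the old male and 10.4% in the old female, and 7.59% and 11.8% in the very old male and female. The middle-aged shares lay below both young ones, while the older mice lay on both sides of them. Older minus young was 1.04 percentage points (10.6% ± 2.18, SD, n = 4, against 9.52% ± 0.818, n = 2), two-sided exact permutation p = 0.6, where the smallest p this design allows is 0.0667. The difference was 2.88 points after thinning, 3.71 with stricter cell filters, 0.385 without the old male, 0.463 without the young male, 1.62 without the young female, 2.03 without the very old male and 0.635 without the very old female. Thinning and the stricter filters also changed the denominator unevenly. Thinning kept 3378 of 6036 cells in the old female and 5501 of 7068 in the young female. The stricter filters kept 1638 of 5562 cells in the very old male and 2427 of 5109 in the young male. Of the cells that met every other condition, counted with Fcnb-positive cells included, members were 85.4% in the old male and 91.2% to 98.4% in the other mice. Older minus young was 0.574 points there (exact permutation p = 0.933), and its sign turned to -0.117 after thinning. The depth of the members differed between ages. The median was 25270.5 and 25517.5 UMIs in the middle-aged male and female, above the 14772 to 21898 of the other 6 mice, and its part in the age comparisons was not tested other than by thinning.

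**Figure D1:**
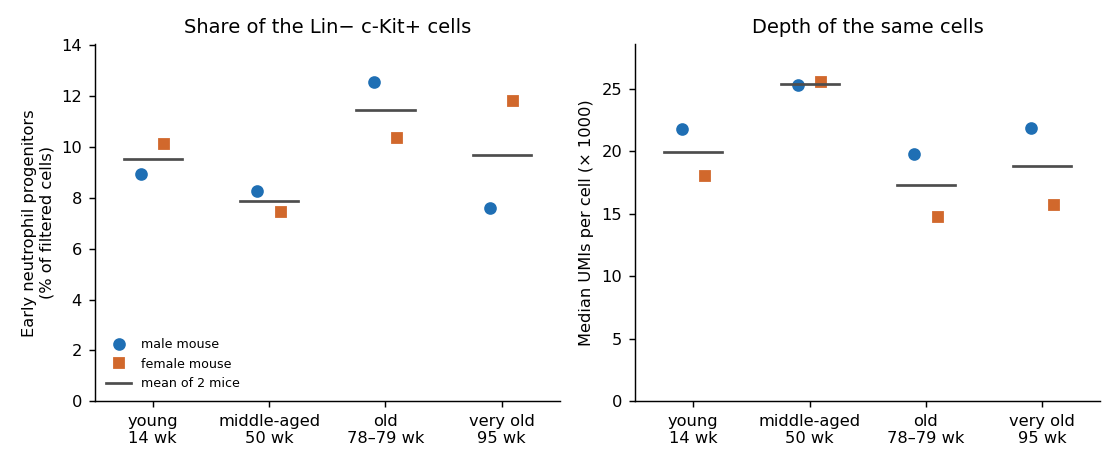
Left, early neutrophil progenitors as a percentage of all filtered cells; right, the median UMIs of the same cells (axis in units of 1000). Each point is 1 mouse (circles male, squares female) and each bar the mean of the 2 mice of an age; the shares of the older mice run from 7.59% to 12.5% and enclose the young ones, while both middle-aged mice have the deepest cells.

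Between their nearest relatives, the members stood midway for several genes. The relatives were 1246 Elane-positive cells with no Cebpe UMI and otherwise the same limits (Cebpe-negative cells), and 298 cells with 2 or more Fcnb UMIs (Fcnb-positive cells). The Cebpe-negative cells lay close to the Elane limit. Their median was 12 to 22 Elane UMIs across the mice, against 101 to 210.5 in members, and 25.3% to 43.5% of them had 5 to 9. Since Cebpe and Fcnb set these groups and cells of 1 mouse share their source, the differences are descriptions with no test, as the median over the 8 mice of the log2 ratio of CPM (a gene's UMIs per 1000000 UMIs of the same cells of a mouse), with 10 CPM added to both. Apart from the rule genes and Prg2, the genes highest in members over Cebpe-negative cells were S100a8, a calcium-binding alarmin of the neutrophil cytoplasm (3.18), Wfdc21 (2.20), the antibacterial Pglyrp1 (1.99), Rgcc (1.96) and Dstn, an actin-severing protein (1.75). Lower in members were Irf8, the monocyte and dendritic cell transcription factor (-1.64), and F13a1 (-1.34), Pou2f2 (-1.02), Bcl2 (-0.9998) and Ifitm1 (-1.11). Irf8 stood at 14.5 to 44.3 CPM in the members of the 8 mice and at 54.4 to 157 CPM in their Cebpe-negative cells, with no overlap between the ranges. Prg2, the eosinophil major basic protein, had a ratio of 2.92, but 41 of the 4506 members held 7943 of its UMIs and all the others 710, or 7.92 CPM, against a median of 2.66 CPM in Cebpe-negative cells. The erythroid genes Car1 (-1.63), Car2 (-1.34) and Blvrb (-1.11) were also lower in members.

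Against the Fcnb-positive cells the largest median ratios were those of Cpa3, higher in members, and Camp, lower in them. Cd34, a progenitor surface protein, was at 123 to 209.6 CPM in members and at 0 to 19.96 CPM in Fcnb-positive cells (median log2 ratio 2.86), and Cpa3 (3.95), Adgrg1 (2.46), Fabp5 (2.29), Ifitm1 (2.23), Cd27 (2.13) and Apoe (1.96) were higher in the same direction. Prg2 (2.66) was higher in 7 of 8 mice, with the same few cells holding most of its UMIs. Camp, the cathelicidin of the secondary granule, was at 0.424 to 7.24 CPM in members and at 13.3 to 7661 CPM in Fcnb-positive cells (-7.73). Ngp (-6.10), S100a9 (-6.83), S100a8 (-4.86), Chil3 (-4.18), Wfdc21 (-3.20) and Cybb, the catalytic subunit of the NADPH oxidase (-2.48), were lower in members too. The Fcnb-positive values rest on 8 to 112 cells per mouse, and those of Camp, Ngp and Chil3 ranged widely, with a ratio as small as -0.64 for Ngp and 0.04 for Chil3 in a single mouse.

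**Figure D2:**
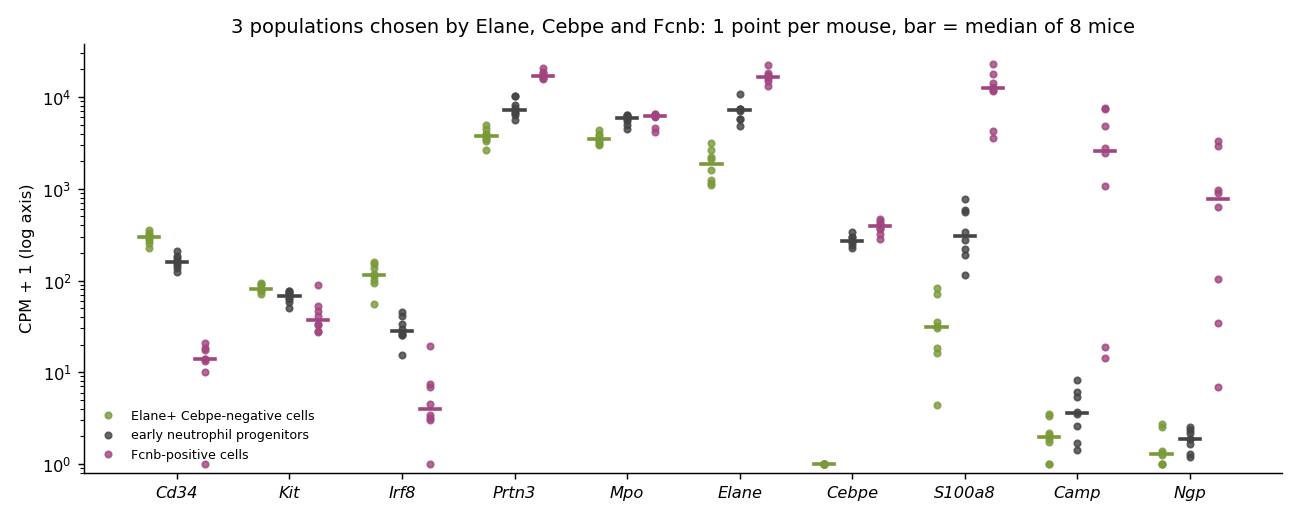
CPM plus 1, on a log axis, of 10 genes in Cebpe-negative cells, early neutrophil progenitors and Fcnb-positive cells; each point is 1 mouse and each bar the median of 8 mice. Cd34 and Irf8 step down and S100a8, Camp and Ngp step up from left to right within each gene, with Elane and Cebpe shown although the rule fixed them.

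The members were not uniform. For 7636 genes, the spread of thinned counts between the members of a mouse was measured by the variance of Pearson residuals. These allow for counting error and for an overdispersion common to the genes of a mouse, so that a typical gene lies near 1. The highest medians over the 8 mice were Prg2 (145), S100a8 (34.8), S100a9 (25.1), Prg3 (15.7) and Car1 (10.1). Elane (9.09) and Prtn3 (8.11) followed, then Gm42418 (7.18), the basophil protease Mcpt8 (6.60), the mast cell protease Cpa3 (6.499), the histone Hist1h1b (5.93) and Cx3cr1 (5.89). The Prg2 spread came from few cells. Of all members 353 had a Prg2 UMI, and 41 (0.910%) had 20 or more, up to 1326 UMIs in 1 cell of the young female. This cut and the genes below were chosen after the spread had been seen. There were 1, 8, 7 and 1 such cells in the young, middle-aged, old and very old males and 9, 5, 5 and 5 in the females, or 0.219% to 1.94% of a mouse's members.

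The Prg2-high cells carried a set of eosinophil granule transcripts. Over all mice, Prg3, a homologue of Prg2, stood at 1728 CPM in them and 13.5 CPM in the other members, eosinophil peroxidase (Epx) at 417 against 0.402 CPM, and the eosinophil ribonucleases Ear1, Ear2 and Ear6 at 26.8, 61.6 and 72.7 against 0.0446, 0.0781 and 0.0112 CPM. The interleukin 5 receptor Il5ra was at 17.4 against 0.502 CPM on 11 and 45 UMIs. S100a8 was at 3.16 CPM on 2 UMIs in these cells and at 402 CPM in the other members, and Ly6c2 at 17.4 against 252 CPM. Cebpe stood at 1088 against 268 CPM, and Elane at 3301 against 7257 CPM. Gfi1 was at 23.7 against 55.5 CPM. These sums pool cells of 8 mice and carry no test, and eosinophil-lineage cells outside the rule were not analysed here.

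**Figure D3:**
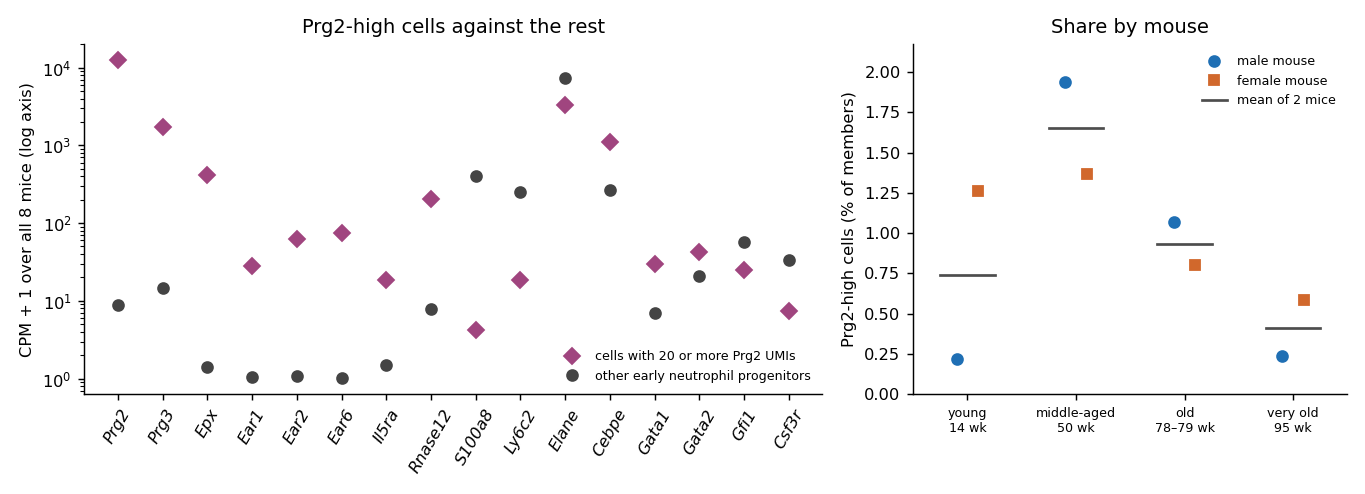
Left, CPM plus 1 (log axis) of 16 genes over all mice, in the 41 members with 20 or more Prg2 UMIs (diamonds) and in the other members (circles). Right, these cells as a percentage of the members of each mouse (circles male, squares female, bars the mean of 2 mice), from 0.219% to 1.94%.

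Across age, the first question was what differed between older and young mice. From here on CPM values are scaled between mice by TMM, which corrects for the composition of the libraries, and genes were called at an adjusted p under 0.05 by the quasi-likelihood test of edgeR, with p-values adjusted over 11307 genes by the Benjamini-Hochberg method. 2 genes were higher (0.0177% of those tested) and 1 was lower (0.00884%) in the members of older mice, while 337 and 309 had an unadjusted p under 0.05. The older mice join 2 series of library names (SL19 at 78 to 79 weeks, as in the young, and SL20 at 95 weeks), and within SL19 alone, at 78 to 79 against 14 weeks, 6 genes were higher and 21 lower. The 1 called gene above 20 CPM was AW112010, a long noncoding RNA gene of inflamed immune cells on chromosome 19 from 11047612 to 11055808. It was at 43.3 and 38.7 CPM in the young male and female, 47.2 and 43.7 in the middle-aged, 58.0 and 61.6 in the old and 70.6 and 70.2 in the very old. The older mice lay above both other ages without overlap, by a log2 fold change of 0.67 ± 0.10 (SE) over young (adjusted p = 0.041), and the call was lost in 7 of 20 alternative settings. The lack of overlap with the young was a condition for naming a gene, and 1521 of all 11307 genes (13.5%) had it. The other called genes were low and were named after their values were seen. Bmpr1a, a BMP receptor, had 1 UMI in each young mouse and 13 to 42 UMIs in the older mice, a pooled ratio of 24.8 (95% exact interval 6.69 to 208, counting error only), and 8 and 26 UMIs in the middle-aged, and it kept its call in 13 of 19 settings. C1qb, a complement subunit of macrophages, had 34 and 37 UMIs in the young male and female and 1, 1, 18 and 5 in the old male, old female, very old male and very old female, a ratio of 0.182 (0.111 to 0.291), and kept its call in 10 of 18 settings. No gene was called in either direction without the old male, without the very old female or without the sex term. With other mice left out, the higher and lower genes numbered 12 and 44 without the young male, 8 and 2 without the young female, 7 and 1 without either middle-aged mouse, 2 and 0 without the old female and 6 and 18 without the very old male.

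The middle-aged members stood out against the young with 31 genes higher (0.274%) and 39 lower (0.345%). Ifitm1, an interferon-induced membrane protein that blocks virus entry (chromosome 7, 140967221 to 140969825), was at 38.5 and 55.9 CPM in the young male and female, 282 and 153 in the middle-aged, 83.1 and 77.1 in the old and 68.6 and 143 in the very old. Pim1, a serine/threonine kinase induced by cytokines through STAT factors (chromosome 17, 29490753 to 29496112), was at 22.4 and 37.5 CPM in the young, 101 and 115 in the middle-aged, 41.1 and 43.6 in the old and 32.9 and 55.0 in the very old. Both middle-aged mice were the highest of the 8 for both genes. The log2 fold change over young was 2.23 ± 0.31 for Ifitm1 (adjusted p = 0.014) and 1.87 ± 0.16 for Pim1 (adjusted p = 0.00015, edgeR's quasi-likelihood test). Pim1 kept its call in all 19 alternative settings of this step and Ifitm1 in 18. Serpina3g, a serine protease inhibitor (chromosome 12, 104236245 to 104241939), rose from 17.7 and 29.8 to 54.4 and 62.5 CPM (1.30 ± 0.16) and Cenpv from 49.1 and 56.4 to 107 and 99.8 CPM (0.96 ± 0.14).

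Of the genes that fell in middle age, some were erythroid markers. Carbonic anhydrase 2 (Car2) fell from 105 and 240.2 CPM in the young male and female to 45.3 and 80.1 CPM in the middle-aged (-1.43 ± 0.22), biliverdin reductase Blvrb from 46.7 and 109.6 to 23.9 and 40.7 CPM (-1.25 ± 0.26), and C1qtnf12 from 50.7 and 87.8 to 30.4 and 38.7 CPM (-0.99 ± 0.15). Blvrb was close to the threshold (adjusted p = 0.049, edgeR's quasi-likelihood test) and kept its call in 10 of 19 alternative settings, with adjusted p up to 0.96. Its change was -0.60 without the young female and -0.05 without members that were possible doublets, a setting that leaves 43 to 260 members per mouse of 366 to 856. Without the possible doublets, that of Car2 was -0.68 and that of C1qtnf12 -0.45, and neither passed. Car2 and Blvrb are erythroid markers, and the summed level of the 12 erythroid markers moved with them: 346 and 655 CPM in the young, 170.3 and 287 in the middle-aged, 190.5 and 214 in the old and 504 and 376 in the very old, with none of the 12 at 0. By edgeR's test Car2 and Blvrb fell and Tfrc, also on this list, rose, against 0.345% and 0.274% of all genes. Of the 12, 1 had a positive sign (median -1.47). All 12 had an unadjusted p under 0.05, against 906 lower and 810 higher of all 11307 genes. From old to very old all 12 had a positive sign (median 1.29). In that step 10 had an unadjusted p under 0.05 and 0 were called by edgeR or DESeq2. The part of the erythroid markers in these changes was not tested. Pink1, a mitochondrial quality-control kinase, fell from 27.2 and 21.2 to 13.02 and 11.8 CPM (-0.96 ± 0.15). The middle-aged counts depended on few mice: without the middle-aged male 5 genes were called, all 5 among the 70, and without the old female, which enters through the shared spread and the sex term, 32. The count was 116 without the young female, 180 without the middle-aged female, and 114 and 143 without the very old male and female. With no sex term 2 were called, and 26 after thinning every cell to one depth.

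Between middle and old age Ifitm1 and Pim1 moved back, and more genes were called than in the step before: 326 genes rose (2.88%) and 356 fell (3.15%). Ifitm1 fell by 1.46 ± 0.30 on the log2 scale (adjusted p = 0.017), a call kept in 15 of 19 settings with a change of -0.65 and adjusted p = 0.23 without the middle-aged male, and Pim1 fell by 1.34 ± 0.15 (adjusted p = 0.0016, edgeR's quasi-likelihood test). The transferrin receptor Tfrc fell from 59.2 and 45.6 CPM in the middle-aged male and female to 24.0 and 21.5 CPM in the old, a log2 change of -1.20 ± 0.19. Creld2, an endoplasmic reticulum protein, fell from 136 and 81.8 to 41.5 and 53.7 CPM (-1.19 ± 0.19). Ypel3, a growth-suppressing gene, rose from 13.2 and 20.2 to 45.1 and 44.2 CPM (1.44 ± 0.17), the glutathione transferases Mgst1 from 22.8 and 29.5 to 71.3 and 54.2 CPM (1.27 ± 0.16) and Mgst2 from 27.6 and 37.3 to 80.9 and 59.3 CPM (1.15 ± 0.20), and the lectin receptor Clec4a2 from 21.1 and 13.8 to 42.2 and 35.1 CPM (1.15 ± 0.24). These steps share the middle-aged mice, so that a high or low value there enters both with opposite signs. Without the middle-aged male 16 genes were called in this step, 15 of them among the 682, without the old male 11, with 9 shared, and without the old female 189, with 164 shared.

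**Figure D4:**
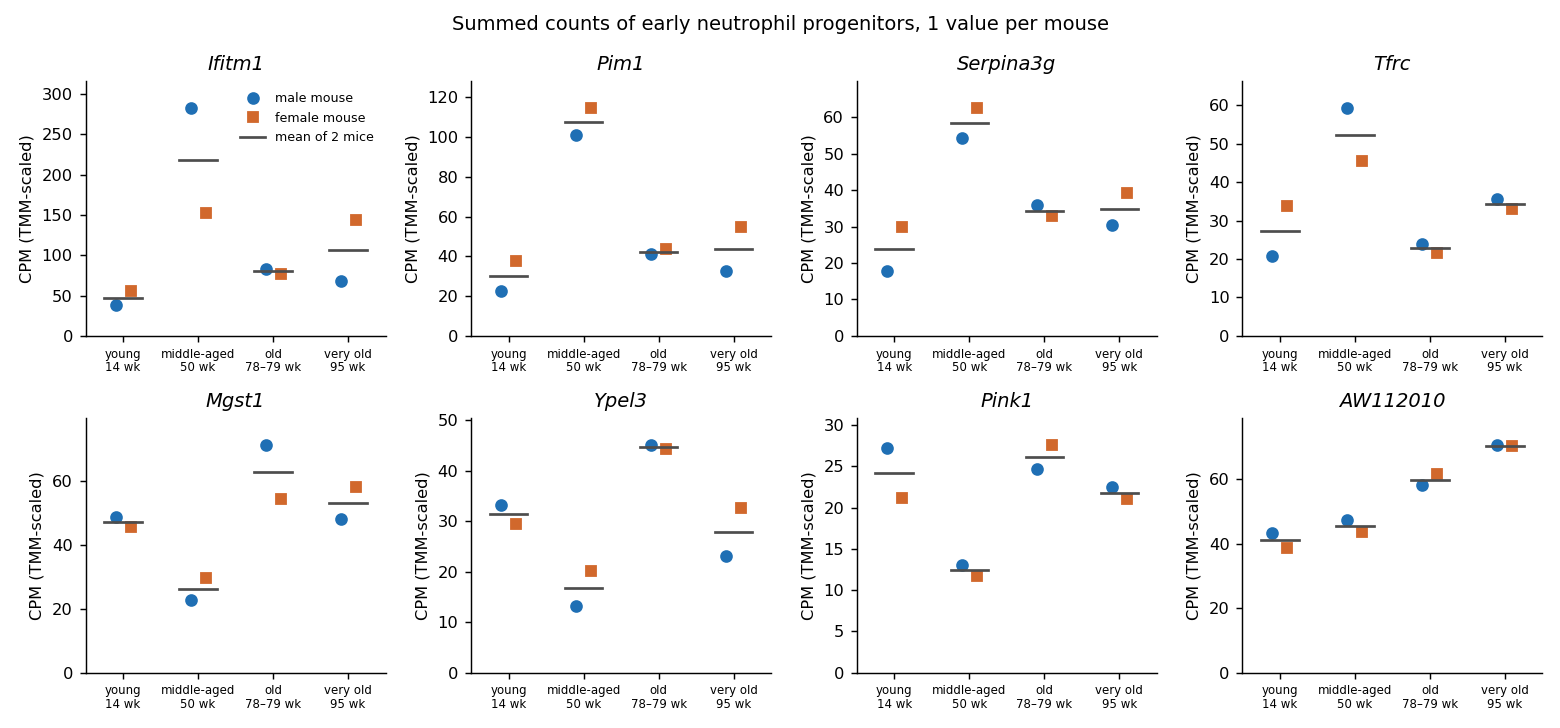
TMM-scaled CPM of 8 genes in the summed early neutrophil progenitors of each mouse (circles male, squares female), with the mean of the 2 mice of an age as a bar. Ifitm1, Pim1, Serpina3g and Tfrc peak at 50 weeks, Mgst1, Ypel3 and Pink1 have their lowest values there, and AW112010 is highest at 95 weeks.

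By gene list, ribosome biogenesis had the most calls. Medians are log2 fold changes over the tested members of a list, leaving out rule genes, and the median of all 11307 genes was 0.02 or less in size in every step. At an unadjusted p under 0.05, 810 of all genes rose and 906 fell from young to middle age. From middle age to old 1360 rose and 1329 fell, and from old to very old 629 rose and 548 fell. A positive sign was held by 5571, 5878 and 5640 of all genes in these steps and by 5770 in older over young mice. Of the 20 genes of MYC and ribosome biogenesis, all 20 had a positive sign in the middle-aged over the young (median 0.31), but 1 rose by the test, Nolc1, a nucleolar phosphoprotein. Of the same 20, 14 fell from middle age to old (median -0.48), against 3.15% of all genes. Nolc1 was at 121 and 128 CPM in the young male and female, 204 and 184 in the middle-aged, 95.6 and 124 in the old and 118 and 113 in the very old. Nucleolin (Ncl), an rRNA-processing protein, went from 1187 and 1323 to 1986 and 1643, 1021 and 1186, and 1294 and 1133 CPM over the same ages, and fell by 0.72 ± 0.13 from middle age to old. Npm1, the most abundant of the list, did not pass (-0.38 ± 0.12, adjusted p = 0.082). Among endoplasmic reticulum chaperones 3 of 18 fell in the same step (Hspa5, Creld2 and Hyou1, median -0.29), as did 5 of 30 S phase genes (Hells, Cdc6, Clspn, Exo1 and Uhrf1, median -0.25), 2 of 32 G2/M genes (Ccna2 and Bub1, median -0.18) and 2 of 16 glycolysis genes (Ldha and Pfkp, median -0.13). The called list members here and below were named after their values were seen.

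The neutrophil granule genes had calls in both middle-aged steps. From middle age to old, the 16 primary granule genes had a median of 0.29. Among them Mpo rose, from 4481 and 4569 CPM in the middle-aged male and female to 6919.8 and 6305 CPM in the old. As CPM without TMM, Mpo was at 6158 and 6025 in the young male and female. Prtn3, at 5454 to 10991 CPM in the 8 mice, had a change of 0.14 ± 0.25. The rule gene Elane was at 5790.2 and 4478 CPM in the middle-aged and at 7006 and 7489, 11695 and 7259, and 5659 and 7642 CPM in the young, old and very old, which is given as a description. Among 12 secondary and tertiary granule genes, lipocalin 2 (Lcn2) rose and the antiprotease Slpi fell from young to middle age, against 0.274% and 0.345% of all genes, and Slpi rose again to old (medians 0.00 and -0.06). The NADPH oxidase list had 1 of 7 genes higher in the old, the proton channel Hvcn1 (median 0.25), where DESeq2 called 0. The monocyte and dendritic list had 3 of 14 higher (Irf8, Mpeg1 and Ms4a6c, median 0.35), against 2.88% of all genes and 2 called by DESeq2. Irf8 was at 14.6 and 26.6 CPM in the middle-aged male and female and 27.7 and 43.5 CPM in the old. In the young male and female it was at 40.0 and 33.0 CPM without TMM. Of 26 cytokine and surface receptors, 3 rose to old (Ly6c2, Ifngr1 and Fcgr3) and Csf2rb, the beta chain shared by the receptors for GM-CSF, IL-3 and IL-5, fell after having risen from young to middle age (18.9 and 19.97, then 31.3 and 30.3, then 16.7 and 22.6 CPM). Csf3r, the receptor for G-CSF, did not pass in any step (26.7 to 38.7 CPM).

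Ifitm1 and Ifitm3 rose from young to middle age among the 21 interferon genes, of which 6 had a positive sign (median -0.20, with 0.274% of all genes called higher). Ifitm3 went from 133 and 195 CPM in the young male and female to 303 and 269 CPM. From middle age to old Rsad2, Rtp4 and Ifit1 rose and Ifitm1 fell, against 2.88% and 3.15% of all genes, while 18 of the 21 had a positive sign (median 0.63) and 15 an unadjusted p under 0.05. Of all 11307 genes, 1360 rose and 1329 fell at that unadjusted p. DESeq2 called 1 of the 21 in this step. From old to very old 5 had a positive sign (median -0.48), and 0 were called by edgeR (8 at an unadjusted p under 0.05) and by DESeq2. These 3 risers were low, with at most 10.0 CPM in any mouse. Of the 16 MHC class I genes, 1 (H2-Q4) rose from middle age to old, and all 16 had a positive sign in older over young mice (median 0.19) with 0 called and 6 at an unadjusted p under 0.05 in edgeR's test (DESeq2 0). MHC class II had 0 of 6 called in every step by edgeR (2, 1 and 1 at an unadjusted p under 0.05) and by DESeq2, with medians of 0.18, 0.14 and -0.22. The granulocyte transcription factors had 0 of 19 called in every step by edgeR (1, 2 and 3 at an unadjusted p under 0.05) and by DESeq2, with medians between 0.01 and 0.08. Myb ranged from 293 to 429 CPM and Spi1 from 178 to 263 CPM over the mice, and Gfi1 from 47.8 to 64.1 CPM. Over all 24 lists, edgeR called 0 of 296 genes for older against young, with 51 at an unadjusted p under 0.05 and 0 called by DESeq2. At that unadjusted p, 337 of all 11307 genes were higher and 309 lower in older mice.

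**Figure D5:**
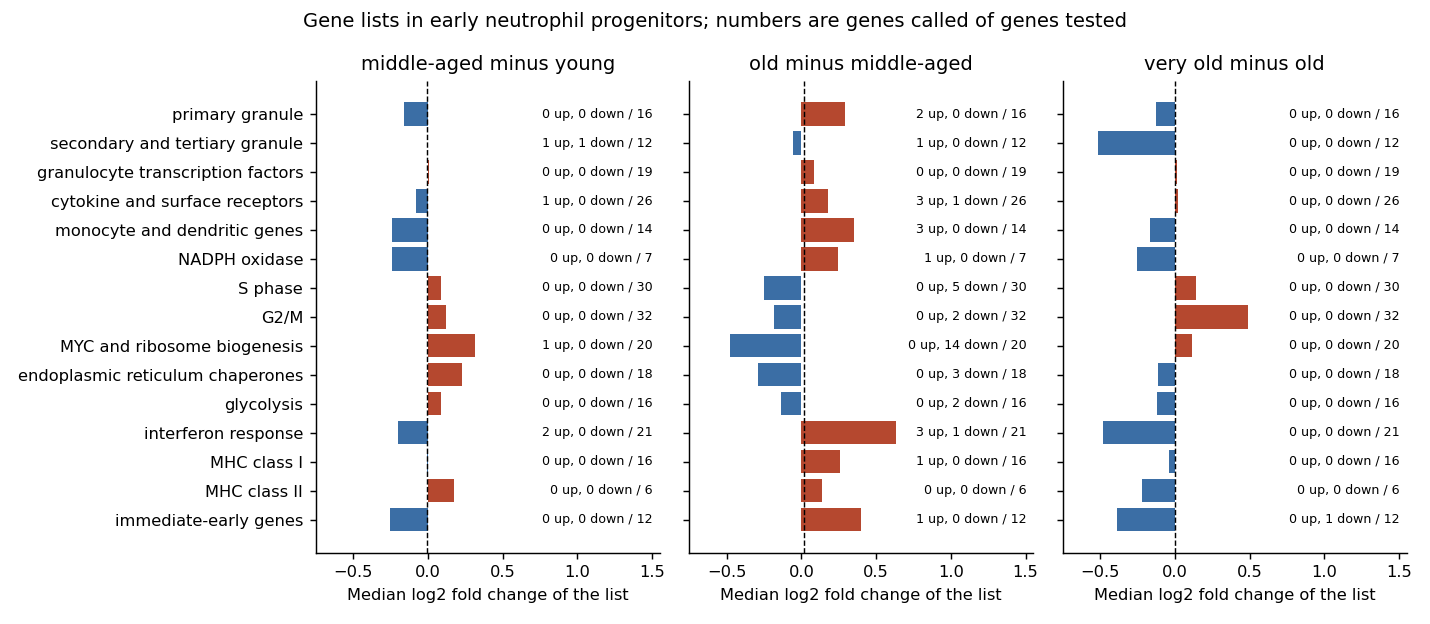
Median log2 fold change of 15 gene lists in early neutrophil progenitors for the 3 steps between neighbouring ages (bars; dashed line, the median of all tested genes), with the number of genes called higher and lower of those tested. MYC and ribosome biogenesis has a median of 0.31 in the first step and -0.48 in the second, where 14 of 20 genes fell; G2/M has 0.49 in the third with 0 called by edgeR and 1 by DESeq2.

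From old to very old 6 genes rose (0.0531%) and 3 fell (0.0265%). Rpgrip1, known as a photoreceptor cilium protein, was at 26.1 to 36.6 CPM in the 6 mice of the first 3 ages and at 72.9 and 56.5 CPM in the very old male and female (1.16 ± 0.11, adjusted p = 0.001, edgeR's quasi-likelihood test). Pfas, a purine synthesis enzyme, rose from 17.2 and 19.7 in the old to 38.4 and 29.6 CPM (0.88 ± 0.14) and the mitotic kinesin Kif15 from 30.3 and 30.0 to 47.7 and 45.9 CPM (0.63 ± 0.11). Kif15 passed narrowly (adjusted p = 0.0499, edgeR's quasi-likelihood test) and kept its call in 7 of 19 alternative settings, with adjusted p up to 0.56, against 18 for Rpgrip1 and 13 for Pfas. The noncoding RNA Neat1 fell from 38.4 and 58.1 to 26.5 and 26.1 CPM (-0.86 ± 0.14). The 5 other called genes fell outside the naming rule and were picked after their values were seen: Abhd2, Notch2 and Slc39a1 rose, and Hist1h2ac and the immediate-early factor Jun fell. Slc39a1 kept its call in 9 of 19 settings and Hist1h2ac in 13. Jun was at 48.1 and 24.6 CPM in the old male and female and at 4.65 and 5.65 CPM in the very old (-2.81 ± 0.33), and it was the 1 called gene of 12 immediate-early genes (median -0.39). From middle age to old 9 of these 12 had a positive sign (median 0.40). Btg2 was called higher there by edgeR, against 2.88% of all genes, and 0 were called by DESeq2. Of the 32 G2/M genes, 31 had a positive sign (median 0.49), and 0 were called by edgeR, with 23 at an unadjusted p under 0.05, and 1 by DESeq2. Of all 11307 genes, 5640 had a positive sign, and 629 rose and 548 fell at that unadjusted p. Top2a, a topoisomerase of dividing cells, was at 144 and 155 CPM in the old male and female and at 221 and 213 CPM in the very old (0.54 ± 0.12, adjusted p = 0.11). The library names of the very old mice belong to another series (SL20) than those of the other 6 mice (SL19), so that age and library series cannot be told apart in this step. The 9 calls became 2 without the very old male, 5 without the old male, 71 without the very old female, 22 and 25 without the middle-aged male and female, and 107 and 102 without the young male and female.

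The Cebpe-negative cells of the same mice showed the middle-aged values of Ifitm1 and Pim1 as well. As CPM without TMM, Pim1 was at 172 and 231 CPM in the Cebpe-negative cells of the middle-aged male and female and at 37.8 to 81.8 CPM in those of the other mice. Ifitm1 was at 699 and 375 CPM and at 119.6 to 309.7 CPM. In a fit over both populations with the mouse as a block, 0 of 11330 genes (0%) had a middle-aged-versus-young change that differed between members and Cebpe-negative cells by edgeR's test (545 at an unadjusted p under 0.05, DESeq2 0). The difference of the changes was -0.03 ± 0.15 for Pim1 and 0.05 ± 0.13 for Ifitm1 on the log2 scale. For old against middle-aged, 8 genes differed (0.0706%), and they were picked after their values were seen. S100a8 was at 779 and 219.9 CPM in the middle-aged members and 564 and 189 CPM in the old, but at 17.4 and 3.37 and then 69.7 and 34.7 CPM in Cebpe-negative cells (difference -2.73 ± 0.22). S100a9 differed likewise (-2.93 ± 0.32). The S100a8 value of the middle-aged female's Cebpe-negative cells rests on 9 UMIs. The Cebpe-negative cells also differed between these ages in other ways. Their median depth was 24221 and 23137 UMIs in the middle-aged male and female and 16869 and 15097 in the old. Their Elane was at 1165 and 1088 CPM and then at 2643 and 2202 CPM. The part of depth and make-up of these cells in the 8 calls was not tested. Tfrc fell in members, while in Cebpe-negative cells it was at 44.0 and 28.4 CPM in the middle-aged male and female and 47.5 and 30.1 CPM in the old (difference -1.36 ± 0.19, adjusted p = 0.000582). The cycling genes Hist1h1b (-0.997 ± 0.12) and Mki67 (-0.73 ± 0.12) and the tubulin Tubb4b (-0.55 ± 0.10) differed the same way, and Gm20342 (0.81 ± 0.15) and the low-count Col5a1 (-4.56 ± 0.87) were the remaining ones. The 8 calls became 3 without the middle-aged male, 4 without the middle-aged female, 3 without the old male, 311 without the old female, 22 without either young mouse, and 15 and 14 without the very old male and female. For middle-aged against young, the count was 2 without either old mouse and 0 without any of the other 6.

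Against the Fcnb-positive cells, 3 of 11027 genes (0.0272%) had an older-versus-young change that differed. Lcn2 was at 15.98 to 31.6 CPM in the members of every mouse. In the Fcnb-positive cells of males it was at 1011 CPM in the young, 131 in the old and 29.7 in the very old. In those of females it went the other way, from 39.1 CPM in the young to 118 and 384 CPM. The fitted difference was 1.31 ± 0.20 (adjusted p = 6.36e-07, edgeR's quasi-likelihood test). Ube2c, a mitotic ubiquitin-conjugating enzyme, was at 61.8 and 73.3 CPM in the young members and 70.5 to 141 CPM in the older, and in Fcnb-positive cells at 186 and 96.6 and then 35.7 to 117 CPM (1.06 ± 0.22). Wfdc17, with 24 to 61 UMIs in the members of each mouse, had 28 UMIs in the Fcnb-positive cells of the young female, 1 in those of the young male and 4, 0, 0 and 0 in the older mice. In Fcnb-positive cells the young male held 472 Lcn2 UMIs and the young female 32, so that the young value rests mainly on the male. For Lcn2 and Ube2c the young male and female lay further apart than the SE would imply, and the p-values do not carry that gap either. The Fcnb-positive side held 8 to 112 cells per mouse, and DESeq2 called 0 genes. The count was 8 without the young male, 10 without the young female, 6 without the old female and 5 without either very old mouse.

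Markers of other cell types were present in the members, some at summed levels above the Gfi1 level of 47.8 to 64.1 CPM. Summed over each list, basophil and mast cell markers (9 genes, Cpa3 and Hdc foremost, Ms4a2 left out) were at 445 and 351 CPM in the young male and female, 266 and 352 in the middle-aged, 411 and 396 in the old and 529.7 and 382 in the very old. Megakaryocyte markers (9 genes, Itga2b and Pf4 foremost) were at 23.2 to 84.9 CPM, stem cell markers (10 genes, Meis1 and Hlf foremost) at 34.3 to 49.1 CPM and B and lymphoid markers (13 genes) at 39.1 to 71.3 CPM, with Rag1, Pax5 and Ms4a1 at 0. Ighm, the immunoglobulin heavy chain, was the 1 called gene of the 4 lymphoid markers tested. It was at 18.3 and 21.1 CPM in the young male and female, 5.72 and 5.83 in the middle-aged, 19.2 and 22.4 in the old and 16.04 and 13.2 in the very old. Its fall into middle age (-1.77 ± 0.17) and its rise to old were both called, against 0.345% of all genes lower and 2.88% higher. T and NK markers (8 genes, 4 at 0) summed to at most 0.409 CPM, plasma cell markers (6 genes, Igkc foremost) to at most 4.70 CPM and stromal markers (6 genes, with Col3a1, Cdh5 and Col1a1 at 0 and Pecam1 foremost) to 19.8 to 31.0 CPM. Mature neutrophil markers (11 genes) summed to 364 and 769 CPM in the young male and female, 1068 and 295 in the middle-aged, 725 and 257 in the old and 156 and 421 in the very old, mostly S100a8 and S100a9. The part of these markers in the age comparisons was not tested, and at least 1 UMI of another lineage's markers was found in 69.6% to 88.3% of the members of each mouse.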

How the data were processed

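The deposited matrices held raw counts of UMIs per gene and cell, made by the authors with Cell Ranger (6.0.0 per the file headers) and the mm10 genome; no other normalization was applied to these deposited counts. The chemistry is Chromium v.3 in the labels and GEM-X v4 in the design text. Cells under 1000 UMIs or with 10% or more mitochondrial UMIs were removed, without a doublet caller; an alternative left out members over the 95th percentile of UMIs or with a UMI of 12 markers of other lineages. Member counts were summed per mouse and tested with edgeR 4.0.16 (TMM, filterByExpr, quasi-likelihood, group plus sex, 8 mice) in R 4.3.3; SE is the absolute log2 fold change divided by the square root of F. In simulated counts for older against young (11186 genes, 50 changed per fold), 56% of genes changed 1.5-fold and 94% of those changed 3-fold were recovered, with 7 false calls. The simulated counts held no sex effect and far more changed genes than the 3 called in the data. More changed genes ease the adjusted threshold, so these rates can exceed those of the real comparison. Shares were tested by exact permutation over all splits of the mice (numpy 2.4.6). Members and gene lists were chosen with earlier results of these data known, and the comparisons with Cebpe-negative cells and the cells without Prg2 were added later.

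Named genes were those called, not overlapping between groups and at 20 CPM or more: up to 10 per direction for older against young, 4 per direction for each neighbouring step and 5 for differences between populations, plus list members called or the 2 most abundant, and descriptive extremes; others are marked. The lists covered primary granule, secondary and tertiary granule, transcription factors, receptors, monocyte, NADPH oxidase, S phase, G2/M, ribosome biogenesis, chaperones, glycolysis, interferon, MHC, immediate-early and other lineages' markers. Of all 11307 tested genes, the groups did not overlap in 41.6% from young to middle age, 46.6% from there to old and 40.4% from old to very old. Of 32285 genes, 32158 matched GENCODE vM21 by identifier. Alternatives were RLE scaling, no low-count filter, DESeq2 1.42.0, no sex term, 1 library series, thinning, stricter rules and filters, equal cell numbers and leaving out each mouse. Replicates are single mice; intervals cover counting error only. One list member's result is not reported here.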

Additional observations from a re-analysis of the deposited data

Results flagged for a closer look

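In the 4 older mice, 31 results were checked for a mouse far from the other 3, and 1 stood out, about as many as chance gives, since it marks around 1 group in 20. C1qb was at 1.78 CPM in the very old male and at 0.0834 to 0.362 CPM in the other 3, where the gap took 0.836 of the range.

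Tests of the difference between populations marked several genes. The older-versus-young log2 change in early neutrophil progenitors minus that in Fcnb-positive cells was 1.31 for Lcn2, 1.06 for Ube2c and 7.20 for Wfdc17, the last on few UMIs. For Lcn2 and Ube2c the young male and female lay far apart in Fcnb-positive cells. The old-versus-middle-aged change in members minus that in Cebpe-negative cells was -2.93 for S100a9, -2.73 for S100a8, -1.36 for Tfrc, -0.997 for Hist1h1b, -0.73 for Mki67, -0.55 for Tubb4b, -4.56 for Col5a1 and 0.81 for Gm20342.

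Tfrc also moved opposite ways in the sexes. Older minus young averaged 8.93 CPM in males and -6.56 CPM in females, with both older mice of each sex on the same side, and this difference was not tested. The female value rests mainly on the old female (-12.3 CPM). Without TMM, the very old female was at 32.2 CPM, close to the 33.4 CPM of the young female.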

How the results depend on the processing

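Of 532 alternative values of 28 named fold changes, 111 lost the call: 15 of 28 with no sex term, 14 without the old male, 13 of 26 without possible doublets, 11 without the old female and 10 without the middle-aged male. None changed sign, which the choice of called genes with groups that do not overlap largely fixes. Where a value below differs, the cause was not tested, except that fewer mice or cells give fewer residual degrees of freedom or counts. Genes higher and lower in older mice (2 and 1) became 58 and 63 with no low-count filter, 5 and 0 by DESeq2, 0 and 0 with no sex term, and 6 and 21 for 78 to 79 against 14 weeks in 1 library series. The higher genes numbered 6 when thinned, 4 with Fcnb at 0, 8 with stricter cell filters, 4 without possible doublets, 5 with equal cell numbers and 1 without Prg2 cells. The lower genes numbered 0 with 10 or more Elane UMIs, 22 with stricter filters and 0 without Prg2 cells. Leaving out 1 mouse gave 0 to 12 higher and 0 to 44 lower. Middle-aged against young (70) gave 493 with no filter, 2 with no sex term, 26 thinned, 46 with stricter filters and 152 without possible doublets, and 5 to 180 with a mouse left out. Old against middle-aged (682) gave 1238, 308, 371, 422 and 375 in the same settings, 382 by DESeq2, and 11 to 961 with a mouse left out. Very old against old (9) gave 220 with no filter, 18 by DESeq2, 4 with no sex term, 1 without possible doublets, and 2 to 107 with a mouse left out.

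The difference from Fcnb-positive cells (3) gave 0 by DESeq2, 1 thinned, 8 with 10 or more Elane UMIs, 1 without possible doublets, and 3 to 10 with a mouse left out. The difference from Cebpe-negative cells for middle-aged against young (0) gave 12 with no filter, 2 with 10 or more Elane UMIs, 1 each with Fcnb at 0, stricter filters and without possible doublets, and 0 to 2 with a mouse left out; for old against middle-aged (8) it gave 140, 3, 10, 22 and 9 in these settings, 2 by DESeq2, 4 thinned, and 3 to 311 with a mouse left out. The older-minus-young share of filtered cells kept its sign in every setting in which it was tested (0.385 to 3.71 points). Shares were not tested with equal cell numbers, which fix the count of members. The share of Elane and Cebpe cells (0.574) reversed to -1.83 in 1 library series, -0.117 thinned and -0.737 without possible doublets, and ran from -0.798 to 3.55 with a mouse left out. For the differences between populations, no sex term (the mouse block holds it) and equal cell numbers were not run, and 1 library series was not run against Cebpe-negative cells. No paired analysis was possible because the labels number no replicates, other than by sex, a term of the age fits, and by mouse, the block of the population differences. The cells without Prg2 and the Cebpe-negative differences were chosen after seeing the data. With 2 mice per age, shares could not reach significance between single ages (smallest exact p 0.333).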
